A study of Mus musculus with 6 samples.

Results

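The E2F transcription factors and the retinoblastoma pocket proteins form the switch that times the expression of genes for DNA synthesis and cell division. The members described here are 10 genes named by symbol, 7 E2F genes (E2f1, E2f2, E2f3, E2f4, E2f6, E2f7 and E2f8) and 3 pocket protein genes (Rb1, Rbl1 and Rbl2), out of 55401 genes in the count tables. All 10 passed the filter on low counts that left 14269 genes for testing. RNA came from RAW264.7, a macrophage line of WT genotype from a mouse with a tumour caused by Abelson leukemia virus. The 3 Nop16 siRNA libraries come from cells transfected for 3 days with 20 nM siRNA against Nop16, a nucleolar protein gene, and the 3 control siRNA libraries are placed in their group by title. The single treatment text names the Nop16 siRNA for all 6 samples. The siRNA given to the controls is not described in the sources used here, so whether the controls match the transfection rests on titles alone. A response to loss of Nop16 and any other response to its siRNA cannot be told apart. The labels name neither separate cultures nor days. The p-values set the group difference against the spread among these samples, which may be technical in part or in full. They may therefore not extend to new cultures.

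In resting or early G1 cells, pocket proteins bind E2F factors and keep their target genes silent. Cyclin-dependent kinases phosphorylate the pocket proteins and release the E2Fs, which bind DNA together with a DP partner. E2F1, E2F2 and E2F3 mainly activate transcription and pair with RB. E2F4 acts mostly as a repressor with the RB relatives p107 (gene Rbl1) and p130 (gene Rbl2), which join the MuvB proteins in the DREAM complex. E2F6 represses without pocket proteins, in a Polycomb complex. E2F7 and E2F8 bind DNA without a DP partner, repress E2F targets late in S phase, and are themselves targets of the other E2Fs.

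Several family genes are thus both regulators and targets of the switch, which is why promoter letters are shown, for the 5 members that passed the test described below and whose first window held a match to the motifs searched. Windows of 300 bases, from 250 bases before to 50 after a RefSeq gene start on GRCm38.p6, were at hand for 8 of the 10 members, E2f4 and Rb1 aside. They were searched on both strands for 4 forms of the E2F site (TTTCCCGC, TTTCGCGC, TTTGCCGC and TTTGGCGC) and for the cell cycle homology region (CHR, TTTGAA), through which DREAM holds mitotic genes. These motifs do not overlap in the windows printed here. Capitals mark the E2F letters and the CHR, as read on the gene's own strand, so a match on the other strand appears as its reverse complement.
E2f2 (chr4:136172024-136172323, plus strand): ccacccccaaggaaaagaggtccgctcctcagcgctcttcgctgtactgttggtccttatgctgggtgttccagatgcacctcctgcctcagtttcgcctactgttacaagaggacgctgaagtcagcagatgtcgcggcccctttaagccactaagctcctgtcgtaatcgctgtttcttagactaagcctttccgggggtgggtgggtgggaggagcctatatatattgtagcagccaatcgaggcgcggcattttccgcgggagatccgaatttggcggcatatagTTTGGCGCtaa
E2f3 (chr13:29986014-29986313, minus strand): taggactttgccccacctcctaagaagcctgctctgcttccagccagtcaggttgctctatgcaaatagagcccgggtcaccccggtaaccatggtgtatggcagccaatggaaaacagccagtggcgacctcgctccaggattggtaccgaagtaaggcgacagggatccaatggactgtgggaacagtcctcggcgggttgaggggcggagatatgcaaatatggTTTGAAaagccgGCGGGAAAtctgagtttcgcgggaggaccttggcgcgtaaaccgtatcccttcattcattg
E2f7 (chr10:110745189-110745488, plus strand): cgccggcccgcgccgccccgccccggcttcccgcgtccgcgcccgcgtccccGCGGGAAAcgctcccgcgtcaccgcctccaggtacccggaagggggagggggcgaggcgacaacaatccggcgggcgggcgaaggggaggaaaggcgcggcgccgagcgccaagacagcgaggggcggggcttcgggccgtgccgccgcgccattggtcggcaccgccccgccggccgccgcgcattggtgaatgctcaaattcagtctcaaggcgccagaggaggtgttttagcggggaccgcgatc
Rbl1 (chr2:157204485-157204784, minus strand): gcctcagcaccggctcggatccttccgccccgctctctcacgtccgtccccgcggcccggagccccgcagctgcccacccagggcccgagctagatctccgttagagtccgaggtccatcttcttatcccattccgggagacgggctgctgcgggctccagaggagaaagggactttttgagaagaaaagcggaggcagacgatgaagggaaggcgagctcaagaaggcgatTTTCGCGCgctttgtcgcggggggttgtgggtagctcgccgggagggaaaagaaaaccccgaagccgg
E2f8 (chr7:48881547-48881846, minus strand): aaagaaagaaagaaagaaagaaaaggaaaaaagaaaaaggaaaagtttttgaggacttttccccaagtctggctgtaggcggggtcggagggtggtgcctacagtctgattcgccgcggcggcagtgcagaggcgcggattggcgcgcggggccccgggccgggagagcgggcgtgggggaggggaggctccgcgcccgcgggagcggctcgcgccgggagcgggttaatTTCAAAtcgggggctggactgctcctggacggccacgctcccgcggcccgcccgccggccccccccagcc

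An E2F site was found in a window of 4 of the 8 members. In Rbl1 it was TTTCGCGC, from 18 to 11 bases before the start. In E2f3 it was TTTCCCGC on the other strand, from 11 to 4 bases before the start. The E2f7 window held TTTCCCGC, on the other strand, much farther up, from 198 to 191 bases before the start. In E2f2, TTTGGCGC lay from 39 to 46 bases after the RefSeq start, which itself stands 120 bases upstream of the start in the count table. E2f8 had no such E2F letters but a CHR on the other strand, from 20 to 15 bases before the start. A CHR also stood in E2f3, from 23 to 18 bases before the start, in the Rbl2 window, and in the second window of E2f2, whose start lies 8388 bases downstream of the first base in the count table. The E2f1 window sits on a RefSeq start 466 bases inside the gene model of the count table, and these letters were absent from it and from the E2f6 window. Over all 32851 windows of this length, 2.26% held an E2F match and 17.9% a CHR. The letters CCAAT were also searched for and are not marked above. They were found in a window of 4 of the 8 members, beside 41.1% of all genes with a window. A match is a description of the letters and shows no binding.

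Of the 10 family genes, 8 fell after Nop16 siRNA and none rose, beside a background of 22.4% of all tested genes lower and 23.0% higher (quasi-likelihood test of edgeR, Benjamini-Hochberg adjusted p below 0.05). In the same 8 genes all 3 Nop16 siRNA libraries lay below all 3 control libraries, which held for 26.1% of all tested genes. The members and all lists below were chosen with earlier results of these data known, so their counts are descriptions and no test. The median log2 fold change (Nop16 siRNA over control siRNA) of the 10 was -0.34, and that of all tested genes was -0.0002. The falls were unequal, from 1.12 on the log2 scale for E2f2 to 0.19 for E2f6. E2f1 and Rbl2 did not pass. Nop16 itself had 61, 72 and 84 counts in the Nop16 siRNA libraries and 388, 437 and 402 in the control libraries, and it stood at 22.4% of control (95% interval 19.0% to 26.5%).

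**Figure D1:**
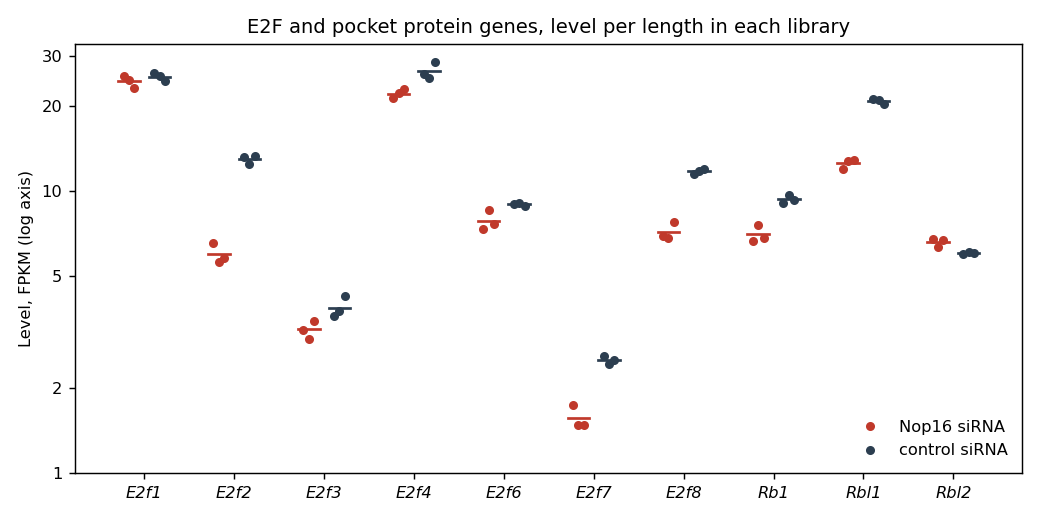
Level of each family gene in FPKM (fragments per kilobase of merged exons, scaled to library size, log axis) in the 3 Nop16 siRNA libraries (red, left) and the 3 control siRNA libraries (dark, right), with the group mean as a bar. E2f2 shows the widest gap, 5.97 against 12.95 FPKM, while the groups of E2f1 overlap and those of Rbl2 lie the other way round.

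Total counts were 15601477 to 18635089 in Nop16 siRNA libraries and 19778237 to 23061922 in control libraries, so each control library was deeper, and the members had between 231 and 2936 counts in every library. All 11 macrophage markers were detected and tested. Of them 7 were higher and 1 lower, beside 23.0% higher and 22.4% lower of all tested genes. Their summed level was 10440 to 10863 CPM (counts scaled by library size) after Nop16 siRNA and 6553 to 6825 CPM in controls. The part of this shift in the family's changes was not tested. Summed markers of T or NK cells, B cells, fibroblasts and epithelium stayed at or below 1.42 CPM after Nop16 siRNA and 1.63 CPM in controls, with Cd3e, Col1a2 and Krt8 at 0 in all 6 libraries. Neutrophil markers summed to 14.5 to 16.8 CPM after Nop16 siRNA and 11.7 to 16.3 CPM in controls. In bulk RNA, fewer cycling cells and less RNA per cell cannot be told apart.

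Among the activator E2Fs, E2f2 fell to 46.0% of its control level, E2f3 fell far less, and E2f1 did not pass. E2f2 (ENSMUSG00000018983) is carried on chromosome 4 from 136172394 to 136196057 on the plus strand of GRCm38, the build of all gene positions given here. It stood at 6.53, 5.61 and 5.77 FPKM in Nop16 siRNA replicates 1, 2 and 3, and at 13.13, 12.48 and 13.24 FPKM in the control replicates. The groups lie far apart, with no Nop16 siRNA library near the lowest control. E2f2 fell by 1.12 on the log2 scale (SE 0.0612, edgeR adjusted p = 1.08e-23), and 152 of the 14269 tested genes had a log2 fold change as low or lower.

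E2f1 (ENSMUSG00000027490), the founding activator, on chromosome 2 from 154559407 to 154569892, had 25.58, 24.67 and 23.10 FPKM after Nop16 siRNA and 26.14, 25.47 and 24.41 FPKM in controls. These ranges overlap. The log2 difference was -0.05 (SE 0.0475, 95% interval -0.15 to 0.04, edgeR adjusted p = 0.379), so a change of the size seen for E2f2 lies outside the interval. E2f3 (ENSMUSG00000016477, chromosome 13, from 29906575 to 29986063), which encodes an activator and, from an internal start, a shorter form, had 3.22, 2.99 and 3.47 FPKM after Nop16 siRNA and 3.59, 3.74 and 4.23 FPKM in controls. Its highest Nop16 siRNA library came close to its lowest control. It fell by 0.25 on the log2 scale (SE 0.0879, edgeR adjusted p = 0.0142). Without Nop16 siRNA replicate 2 the log2 fold change of E2f3 was -0.20 (adjusted p = 0.101), and without control replicate 3 it was -0.18 (adjusted p = 0.122), so the call was lost without either library. The counts are per gene, and the forms of E2f3 were not separated.

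The repressor E2Fs that need neither DP nor pocket proteins fell together. E2f8 (ENSMUSG00000046179, chromosome 7, from 48866429 to 48881596) had 6.89, 6.82 and 7.72 FPKM after Nop16 siRNA and 11.49, 11.74 and 11.98 FPKM in controls. Every Nop16 siRNA library lay well below every control. This was 61.0% of control, a fall of 0.71 on the log2 scale with an SE of 0.0569 (edgeR adjusted p = 1.23e-16). E2f7 (ENSMUSG00000020185, chromosome 10, from 110745439 to 110787384), the member with the lowest level, had 1.74, 1.47 and 1.48 FPKM after Nop16 siRNA against 2.59, 2.44 and 2.51 FPKM in controls. Again the groups were apart, and its fall of 0.69 on the log2 scale (SE 0.0889, edgeR adjusted p = 1.83e-09) was close to that of E2f8. Gene models on the opposite strand share 11.2% of the E2f8 exons and 0.955% of those of E2f7, and the authors' counting used strand.

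E2f4 and E2f6, the repressors that work through pocket proteins and through Polycomb proteins, moved less. E2f4 (ENSMUSG00000014859, chromosome 8, from 105297663 to 105305370), usually the most abundant E2F of resting cells, had 21.27, 22.17 and 22.88 FPKM after Nop16 siRNA and 26.02, 25.03 and 28.58 FPKM in controls. The groups did not overlap, and the fall was 0.26 on the log2 scale (SE 0.0538, edgeR adjusted p = 4.75e-05). E2f6 (ENSMUSG00000057469, chromosome 12, from 16810963 to 16839742) had 7.31, 8.52 and 7.65 FPKM after Nop16 siRNA and 8.97, 9.07 and 8.80 FPKM in controls. Nop16 siRNA replicate 2 came within a narrow margin of the lowest control. The fall of 0.19 (SE 0.0588, edgeR adjusted p = 0.00545) became -0.15 with an adjusted p of 0.0521 when Nop16 siRNA replicate 1 was left out.

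The 3 pocket protein genes did not move alike: Rbl1 fell strongly, Rb1 less, and Rbl2 did not pass. Rbl1 (ENSMUSG00000027641), which encodes p107, the pocket protein most abundant in dividing cells, lies on chromosome 2 from 157145893 to 157204534. It had 11.98, 12.76 and 12.89 FPKM after Nop16 siRNA against 21.11, 21.05 and 20.28 FPKM in controls. All Nop16 siRNA libraries were low and close together. Rbl1 was at 60.3% of control, a fall of 0.73 on the log2 scale with an SE of 0.0428 (edgeR adjusted p = 2.73e-22).

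Rb1 (ENSMUSG00000022105), the retinoblastoma tumour suppressor gene, on chromosome 14 from 73183673 to 73325822, had 6.63, 7.57 and 6.81 FPKM after Nop16 siRNA and 9.04, 9.64 and 9.31 FPKM in controls. The groups were separate, and the fall was 0.41 on the log2 scale (SE 0.0579, edgeR adjusted p = 1.67e-08), to 75.1% of control. Rbl2 (ENSMUSG00000031666), which encodes p130, the pocket protein of quiescent cells, on chromosome 8 from 91070057 to 91123844, had 6.74, 6.33 and 6.69 FPKM after Nop16 siRNA and 5.98, 6.04 and 6.02 FPKM in controls. Each Nop16 siRNA library was above each control, as for 26.3% of all tested genes. Its log2 fold change of 0.13 (SE 0.0566, 95% interval 0.02 to 0.24) missed the threshold at an edgeR adjusted p of 0.0529. It passed without Nop16 siRNA replicate 2 (log2 fold change 0.16, adjusted p = 0.0337), after thinning to equal depth (0.15, 0.0317) and with a filter of 5 CPM (0.13, 0.0469). Opposite-strand gene models share 14.9% of the Rb1 exons and 21.0% of the Rbl2 exons.

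**Figure D2:**
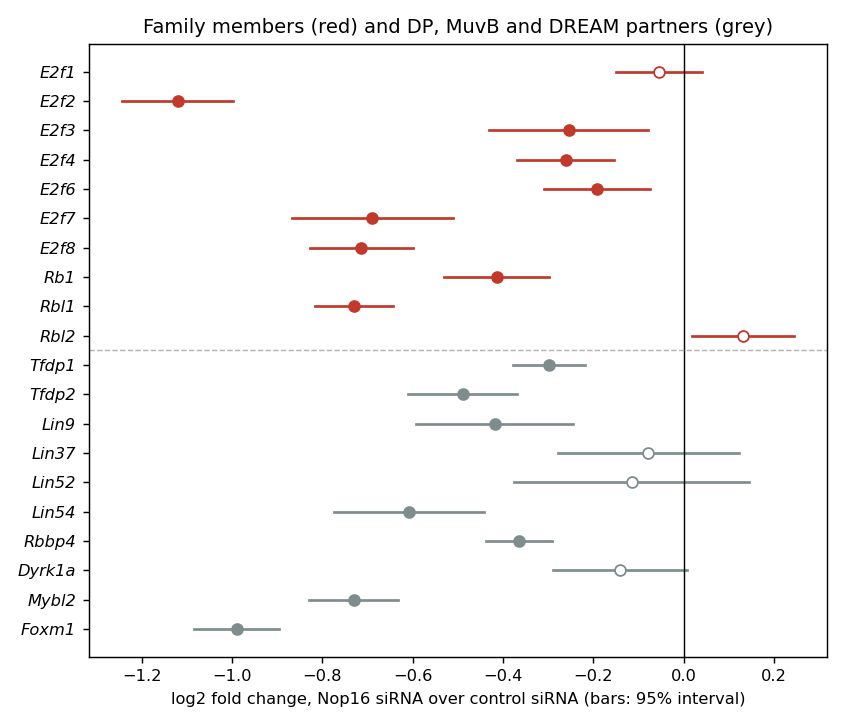
Log2 fold change, Nop16 siRNA over control siRNA, of the 10 family genes (red, above the dashed line) and of 10 DP, MuvB and DREAM partner genes (grey), with 95% intervals. Filled circles passed the test (edgeR adjusted p below 0.05) and open circles did not. Only the interval of Rbl2 lies wholly above 0 among these 20 genes, although its adjusted p missed the threshold.

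The order of levels per length within the family changed with these unequal falls. After Nop16 siRNA it ran from E2f1 (24.45 ± 1.26 FPKM), E2f4 (22.10 ± 0.805) and Rbl1 (12.54 ± 0.495) to a group of 5 genes with neighbouring ranges that overlapped in part, E2f6 (7.83 ± 0.626), E2f8 (7.14 ± 0.504), Rb1 (7.005 ± 0.5004), Rbl2 (6.59 ± 0.222) and E2f2 (5.97 ± 0.494), and ended with E2f3 (3.23 ± 0.240) and E2f7 (1.56 ± 0.154; SD, n = 3). In controls the order was E2f4 (26.54 ± 1.83 FPKM), E2f1 (25.34 ± 0.869), Rbl1 (20.81 ± 0.466), E2f2 (12.95 ± 0.411), E2f8 (11.74 ± 0.245), Rb1 (9.33 ± 0.303), E2f6 (8.95 ± 0.136), Rbl2 (6.01 ± 0.0335), E2f3 (3.86 ± 0.336) and E2f7 (2.51 ± 0.0779; SD, n = 3). E2f4 and E2f1 overlapped in controls, as did Rb1 and E2f6. E2f2 was thus the fourth in order among the 10 genes in controls and the eighth after Nop16 siRNA. These levels use the merged exons of each gene model, so a gene that uses a short form is understated.

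Summed over the 7 E2F genes, the level was 72.29 ± 0.241 FPKM after Nop16 siRNA and 91.89 ± 1.90 FPKM in controls (SD, n = 3). E2f1 held 33.8% ± 1.63 of this sum after Nop16 siRNA and 27.6% ± 1.35 in controls, and E2f2 held 8.26% ± 0.658 and 14.1% ± 0.208. E2f4 held 30.6% ± 1.21 after Nop16 siRNA and 28.9% ± 1.42 in controls. The pocket protein sum was 26.14 ± 0.697 FPKM after Nop16 siRNA and 36.16 ± 0.569 FPKM in controls. Of that sum Rbl1 held 48.0% ± 0.805 after Nop16 siRNA and 57.6% ± 0.776 in controls, Rbl2 25.2% ± 1.43 and 16.6% ± 0.236, and Rb1 26.8% ± 1.40 and 25.8% ± 0.683. The shares are descriptions without a test.

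**Figure D3:**
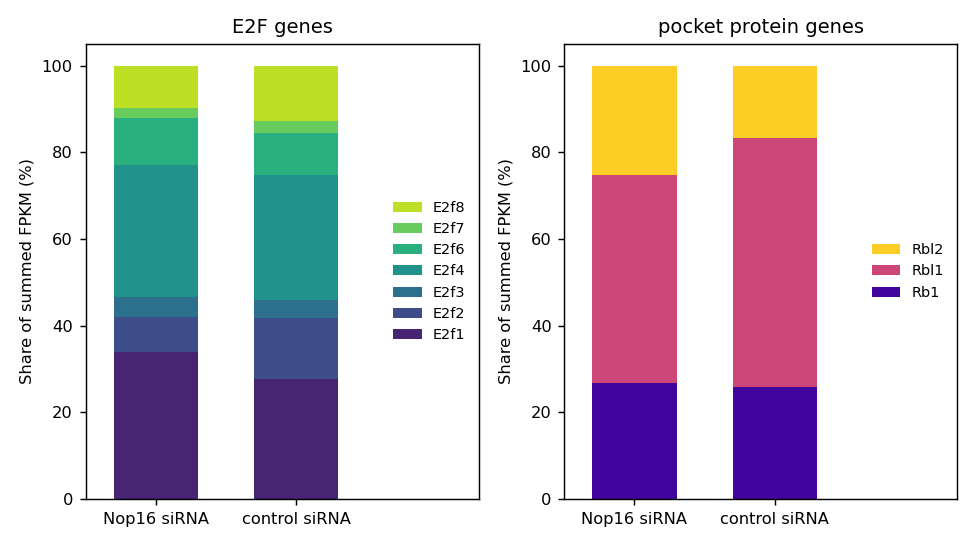
Mean share of each gene in the summed FPKM of the 7 E2F genes (left) and of the 3 pocket protein genes (right), in Nop16 siRNA libraries (left bar) and control libraries (right bar), n = 3 each, with genes stacked in the order of the legend. The E2f1 share is wider after Nop16 siRNA (33.8% against 27.6%), as is that of Rbl2 (25.2% against 16.6%).

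Ratios between members within a library do not depend on how libraries are scaled to each other. The log2 ratio of E2f2 to E2f1, per length, was -1.970, -2.137 and -2.002 in Nop16 siRNA replicates 1 to 3 and -0.99, -1.03 and -0.88 in the control replicates. The ratio was lower in every Nop16 siRNA library, by 1.07 on average. The log2 ratio of Rbl1 to Rbl2 was 0.83, 1.01 and 0.95 after Nop16 siRNA and 1.82, 1.80 and 1.75 in controls, a difference of -0.86 with no overlap. That of Rbl1 to Rb1 differed by -0.32, also with no overlap, at 0.84 ± 0.0843 after Nop16 siRNA and 1.16 ± 0.0573 in controls (SD, n = 3). E2f8 to E2f7 overlapped between the groups (difference -0.03), as did E2f1 to E2f4 (difference 0.21). In exact two-sided permutation tests the first 3 of these 5 ratios reached p = 0.1, the smallest that 3 against 3 libraries can give, and the other 2 had p = 0.8 and p = 0.2. Adjusted over the 5 ratios these became 0.167, 0.8 and 0.25, so none passed 0.05 in this design.

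**Figure D4:**
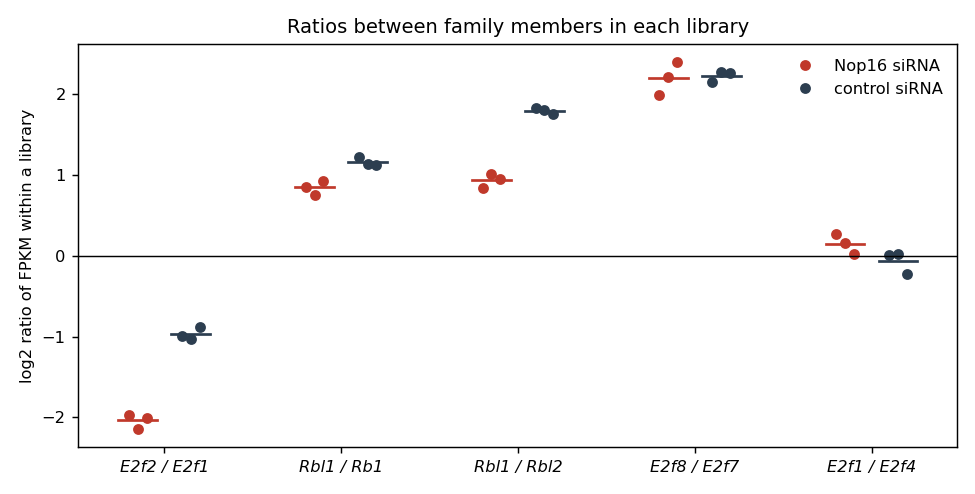
Log2 ratio of FPKM between family members in each library (points) with group means (bars), Nop16 siRNA in red on the left of each pair and control siRNA in dark on the right. The E2f2 to E2f1, Rbl1 to Rb1 and Rbl1 to Rbl2 ratios are lower in all 3 Nop16 siRNA libraries than in all 3 controls.

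The genes whose profile over the 6 libraries lay nearest to a member, by Euclidean distance of centred log2 CPM among the 10791 genes that averaged 5 CPM or more, were listed for the most changed member of each class. For E2f2 they were the histone variant gene H2afx (distance 0.0841), the mitotic kinesin gene Kif14 (0.137) and the chromatin protein gene Hmga1 (0.163). For Rbl1 they were Tpx2 (0.0309) and Prc1 (0.0474), which encode spindle proteins, and Atad2 (0.0515), a chromatin gene. For E2f8 they were the Integrator subunit gene Ints10 (0.0564), the ribosomal protein gene Rpl17 (0.0692) and Hyls1 (0.0712), a centriole gene. These profiles cover only 2 conditions.

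Most listed genes for DP partners, MuvB subunits and factors linked to DREAM were lower. The list counts in the kinase gene Dyrk1a and the later MuvB partners Mybl2 and Foxm1. Of the 10 genes, 7 were lower and none higher, beside 22.4% lower and 23.0% higher of all tested genes. Their median log2 fold change was -0.39. Both DP genes fell, Tfdp1 to 27.1 ± 0.505 FPKM after Nop16 siRNA against 33.3 ± 0.231 in controls (SD, n = 3; log2 fold change -0.30, edgeR adjusted p = 4.27e-09), and Tfdp2 by 0.49. In MuvB, the core of DREAM, Lin54, which reads the CHR, fell by 0.61, Lin9 by 0.42 and Rbbp4 by 0.36. Lin37 (-0.08, adjusted p = 0.562) and Lin52 (-0.11, adjusted p = 0.503) did not pass, nor did Dyrk1a, the kinase that starts DREAM assembly (-0.14, adjusted p = 0.116), which passed without Nop16 siRNA replicate 2 (-0.21, adjusted p = 0.0303). The factors that join MuvB later in the cycle fell most: Mybl2, which encodes B-MYB, by 0.73, and Foxm1 by 0.99, with 9.47 ± 0.403 FPKM after Nop16 siRNA and 18.8 ± 0.591 FPKM in controls (SD, n = 3). Every edgeR adjusted p of these called partners was 5.26e-05 or lower.

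In the Polycomb complex that carries E2F6, 9 of 10 listed genes were tested, and 2 were lower and 2 higher, with a median of -0.09. These shares are close to the 22.4% lower and 23.0% higher of all tested genes. In this fit the counts thus show nothing particular to the complex. With libraries scaled by total count the number lower rose from 2 to 4, beside 3470 of all 14269 tested genes. Yaf2 fell by 0.66 and Cbx3, a heterochromatin protein gene, by 0.42 on the log2 scale (edgeR adjusted p of 1.18e-13 for Cbx3 and 9.66e-12 for Yaf2). Rnf2, the ubiquitin ligase subunit, rose by 0.25 (adjusted p = 0.00822) and Max, the DNA-binding partner of MGA, by 0.22 (adjusted p = 0.00241). The call of Rnf2 was lost without Nop16 siRNA replicate 2 (0.20, adjusted p = 0.0686) and that of Max without control replicate 1 (0.15, adjusted p = 0.0661). L3mbtl2 (-0.09, adjusted p = 0.217) and Mga (-0.12, adjusted p = 0.0609) missed the threshold, and Mga passed without Nop16 siRNA replicate 2 (-0.16, adjusted p = 0.0284). Pcgf6, which marks this form of the complex, had 0, 3 and 3 counts after Nop16 siRNA and 7, 3 and 5 in controls and was not tested. Of 14 germline genes that E2F6 and its complex are known to hold silent, only Tdrkh was tested, and 4 were at 0 counts in all 6 libraries. The 14, Tdrkh among them, summed to 56.6 to 58.6 CPM after Nop16 siRNA and 47.7 to 53.1 CPM in controls. All listed genes but Tdrkh were below the low-count filter, so this sum does not show expression of the list as a whole. Tdrkh rose by 0.17 (adjusted p = 0.00873), and not without Nop16 siRNA replicate 3 (0.15, adjusted p = 0.0511) or control replicate 3 (0.12, adjusted p = 0.0937).

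Of 14 corepressors that pocket proteins recruit, 4 were lower and 2 higher, beside the 22.4% lower and 23.0% higher of all tested genes. Their median was -0.07. With scaling by total count the number lower rose from 4 to 7, beside 3470 of all 14269 tested genes. Smarca4, the remodelling ATPase, rose by 0.32 and Sin3b, a histone deacetylase scaffold, by 0.21. Kdm5a, a histone demethylase gene first found as an RB partner, fell by 0.24, all with an edgeR adjusted p of 6.94e-05 or lower. Suv39h2, a histone methyltransferase gene, fell by 0.44 (adjusted p = 0.0112), but at -0.31 (adjusted p = 0.116) without Nop16 siRNA replicate 3 and at -0.36 (adjusted p = 0.077) without control replicate 1 it did not pass.

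Upstream of the pocket proteins, 10 genes for cyclins, their kinases and the phosphatase CDC25A were listed. In that list 8 were lower and 2 higher, with a median of -0.19. Of these, Ccne1, Ccne2 and Cdc25a are also counted among the G1/S targets below and Ccna2 among the G2/M targets, so the counts are not separate. Beside the counts of this list and of the inhibitors and turnover genes below, 22.4% of all tested genes were lower and 23.0% higher. Ccna2, the S and G2 cyclin, fell by 1.01, to 23.2 ± 0.791 FPKM after Nop16 siRNA against 46.8 ± 2.86 FPKM in controls (SD, n = 3). The cyclin E genes Ccne1 and Ccne2, classical E2F targets, fell by 0.38 each, and the D cyclin gene Ccnd2 rose by 0.49 at a low level of 1.41 ± 0.0586 FPKM after Nop16 siRNA and 1.00 ± 0.1196 FPKM in controls (SD, n = 3). The edgeR adjusted p of these 4 cyclin genes was 0.000245 or lower. Inhibitors of these kinases moved both ways, with 3 lower and 2 higher of 5 tested among 7. Cdkn2c, which encodes the CDK4 and CDK6 inhibitor p18, fell by 0.93, Cdkn1b by 0.39 and Cdkn2d by 0.20. Cdkn1a, which encodes p21, rose by 0.30, to 74.9 ± 2.45 FPKM after Nop16 siRNA against 61.0 ± 1.64 FPKM in controls, and Cdkn1c rose by 0.91 (1.65 ± 0.200 against 0.868 ± 0.139 FPKM; SD, n = 3). The highest edgeR adjusted p of these 5 inhibitor genes was 0.00367, that of Cdkn2d. Cdkn1c was no longer tested with a filter of 5 CPM, which left 1 inhibitor higher. Cdkn2a and Cdkn2b had 0 counts in all 6 libraries, and 3 counts would correspond to 0.130 to 0.192 CPM in a single library. Of 5 genes for E2F and inhibitor turnover, 4 were lower and 1 higher, with a median of -0.24. Ccnf, the cyclin F gene, fell by 0.88 and Cks1b by 0.70, while Mdm2, the p53 ubiquitin ligase gene, rose by 0.36 (edgeR adjusted p of 1.42e-07 or lower for all 3). Fzr1, an activator of the anaphase-promoting complex, fell by 0.24, and missed the threshold without Nop16 siRNA replicate 3 (-0.16, adjusted p = 0.0567).

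Nearly all listed targets downstream of the switch were lower. Of 50 G1/S genes known as E2F targets, 49 were lower and none higher, beside 22.4% lower and 23.0% higher of all tested genes. Their median log2 fold change was -0.43. The target lists were chosen with earlier results of these data known, so their counts are descriptions and no test. Fbxo5, the inhibitor of the anaphase-promoting complex, fell by 0.86, Bard1, the partner of BRCA1, by 0.84, Mcm5 by 0.74 and Tyms by 0.73. The exception was Gins2 (-0.17, adjusted p = 0.0949), which passed without Nop16 siRNA replicate 1 (-0.23, adjusted p = 0.0341) and without control replicate 2 (-0.22, adjusted p = 0.0447). All 40 G2/M genes known as DREAM targets were lower, with a median of -0.90, led by Kif11 (-1.31), Ccnb2 (-1.27), Bub1b (-1.15) and Plk1 (-1.13). Foxm1 is counted both here and among the DREAM partners. E2f2, at -1.12, lay beyond the G1/S target with the largest fall (Fbxo5, -0.86) and within the range of the G2/M class, while E2f7, E2f8 and Rbl1 lay within the ranges of both classes. The difference between the 2 classes was not tested. Of 8 apoptosis genes known as E2F1 targets, 7 were tested, with 4 lower and 1 higher and a median of -0.11. The 22.4% lower and 23.0% higher of all tested genes stand beside this count too. Bcl2l11, which encodes BIM, fell by 0.53 and Pmaip1, which encodes NOXA, by 0.50, and Apaf1 rose by 0.17 (edgeR adjusted p of 0.00177 or lower for all 3).

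**Figure D5:**
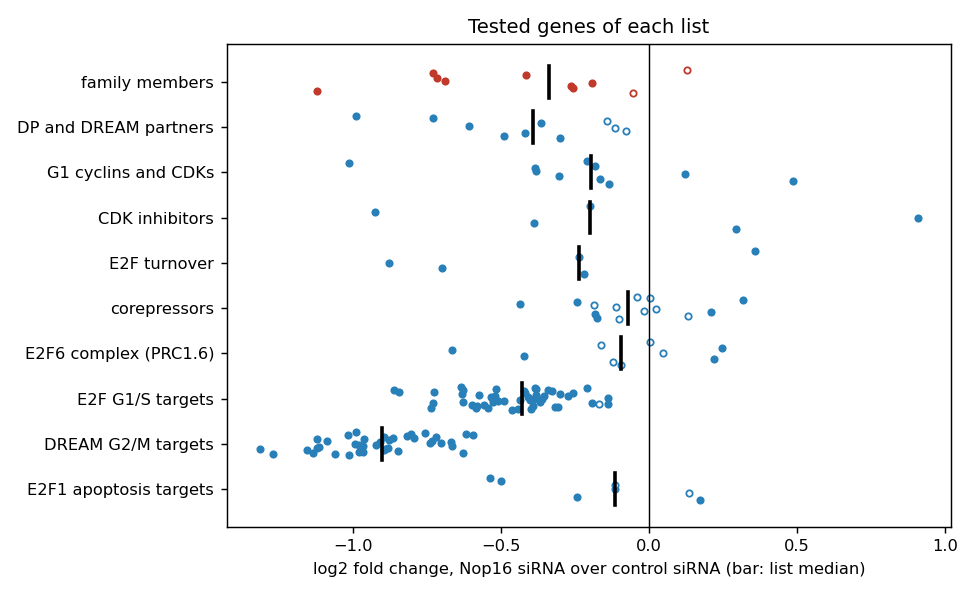
Log2 fold change, Nop16 siRNA over control siRNA, of every tested gene in the family (red) and in 9 related lists (blue), with the list median as a black bar. Filled points passed the test (edgeR adjusted p below 0.05) and open points did not. The DREAM G2/M targets lie farthest to the left (median -0.90), and the corepressors and the E2F6 complex lie around 0.

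The same E2F and CHR letters were counted over genes outside the family. Of the G1/S targets with a window, 19 of 39 held an E2F match and 7 a CHR. Of the G2/M targets with a window, 1 of 33 held an E2F match and 23 a CHR. Over 27025 genes with a window, 2.6% held an E2F match and 20.2% a CHR. Among all tested genes other than the members, 455 had an E2F match, of which 171 (37.6%) were lower and 73 (16.0%) higher, with a median log2 fold change of -0.08. The 8993 genes with a window but no E2F match had 22.2% lower and 26.9% higher, with a median of 0.02. Among 1381 genes with a CHR, 28.7% were lower and 23.9% higher, with a median of -0.04. The 8067 genes with a window but no CHR had 21.9% lower and 26.8% higher, with a median of 0.02. For the 72 genes with both, 44.4% were lower and 12.5% higher, with a median of -0.15. All 9448 tested genes with a window, members aside, had 22.9% lower and 26.4% higher. These counts include the genes of the lists above.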

How the data were processed

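The authors' deposited tables hold raw counts of fragments for each Ensembl release 101 gene model of GRCm38, from featureCounts 2.0.1, per the file headers. Counting was paired and stranded (setting 2), required both ends mapped and an overlap of 10 bases or more, and took in multi-mapped fragments and those over several genes, so paralogs and overlapping genes are uncertain. Submitters' processing notes name Trim Galore and HISAT2 2.2.1. Gene lengths are the merged exon lengths in the same files. Symbols were matched for 55141 identifiers.

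Counts were fitted over all 14269 genes with edgeR 4.0.16 (R 4.3.3; glmQLFTest, robust, TMM, filterByExpr), with Benjamini-Hochberg adjustment over all of them. SE is the log2 fold change over the root of F. CPM and FPKM use TMM-scaled library sizes. The members and lists were chosen with earlier results of these data known. Named list genes are up to 4 called members with the largest change, any tested member of the DP and DREAM, PRC1.6 and inhibitor lists, and 3 nearest profiles per class. Pcgf6, Gins2, Cdkn2a, Cdkn2b and the markers at 0 were named after their values were seen. DESeq2 1.42.0, limma-voom (limma 3.58.1), other scalings and filters, a fit without robust, a replicate block, thinning and leaving out each library were tried as alternatives. In simulated counts for 14269 genes, 50 genes were changed at each fold tried. The edgeR test found 52% of the genes set to a 1.2-fold change, 92% of those at 1.5-fold and 100% of those at 2-fold. Of its 183 calls, 11 were false, whereas the fit to the data called 6482 genes. Floors cover counting error only, since the protocol names no molecular identifiers.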

Additional observations from a re-analysis of the deposited data

How the results depend on the processing

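E2f1, E2f2, E2f4, E2f7, E2f8, Rb1, Rbl1 and Nop16 kept their direction and their side of the threshold in all 16 alternatives. The log2 fold change of E2f2 ran from -1.19 to -1.08 and that of Rbl1 from -0.75 to -0.70. Leaving out 1 library at a time, E2f3 ran from -0.31 to -0.18, E2f6 from -0.26 to -0.15 and Rbl2 from 0.12 to 0.16, and 7 to 8 members were lower and 0 to 1 higher. Rbl2 also passed with the 5 CPM filter (0.13) and with thinning (0.15), where 1 member was then higher. With library size only, 4 genes of the E2F6 complex and 7 corepressors were lower, and without 1 library 3 to 6 corepressors were. Without 1 library, 1 to 2 genes of the E2F6 complex and 0 to 1 germline genes were higher. With the 5 CPM filter 1 kinase inhibitor was higher, since Cdkn1c was no longer tested. The log2 fold change of Lin37 ranged from -0.17 without Nop16 siRNA replicate 3 to 0.041 without control replicate 1. The E2f8 to E2f7 difference was 0.038 without replicate 1 and -0.11 without replicate 3. In CPM, with no length correction, E2f4 held 19.7% of the E2F sum after Nop16 siRNA and 17.8% in controls, and Rbl1 held 45.0% and 55.1% of the pocket protein sum. The cause of these shifts was not tested, apart from the length term itself. Same-numbered libraries showed little common deviation (correlations of -0.02, 0.02 and -0.07), and other pairs ran from -0.09 to 0.12. With 3 libraries a group these values cannot exclude a pairing. With a replicate block the log2 fold change of E2f2 was -1.12, and 8 members were lower. The self-test changed far fewer genes than were called in the data, so the adjusted p threshold was stricter there. Its smallest change was 1.2-fold, so its recovery cannot be carried over to a change as small as that of Rbl2 (1.10-fold).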
